A study of Mus musculus with 12 samples.

Results

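Genes that mark the D2 class of medium spiny neurons, the projection neurons of the indirect pathway, were followed through 12 striatal RNA libraries. They were chosen by symbol: Drd2, Adora2a, Penk, Gpr6, Gpr52 and Sp9. Of these 6 genes, 5 were found among the 55487 genes of the count files. Gpr52, an orphan receptor of the same neurons, was not analysed here, because the tables used to pair Ensembl identifiers with symbols give it none.

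The striatum sends its output through a pair of neuron classes. Direct-pathway neurons carry the D1 dopamine receptor and the peptides substance P and dynorphin. Indirect-pathway neurons carry the D2 dopamine receptor, the A2A adenosine receptor and enkephalin, and project to the external pallidum, where they restrain movement. Dopamine lowers cAMP in them through D2, while adenosine raises it through A2A. Enkephalin-rich neurons of this class are known as the first striatal output neurons to lose markers in human Huntington's disease.

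The mice fell into 4 groups of 3, with 1 library per mouse. WT mice were C57BL/6J controls. HD mice were heterozygous for the neo-deleted zQ175 allele, an expanded CAG repeat knocked into the mouse Htt gene and driven by its own promoter in every cell that expresses Htt. cGAS-KO mice lacked cGAS, the enzyme that senses DNA in the cytosol. The double mutants, labelled cGAS-KO;HD, carried both. The study asks whether loss of cGAS changes the disease in knock-in mice. Neither the part of the gene that the cGAS allele removes, nor age, sex or litter, is stated in the labels.

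Totals ran from 59195327 to 72765623 counts per library. Htt was at 169 to 179 CPM (counts relative to library size, scaled by TMM) in WT, 155 to 179 in cGAS-KO, 131 to 144 in HD and 126 to 142 in the double mutants. Cgas had 79 to 105 counts per WT library and 36 to 54 per cGAS-KO library, but 73 to 95 in HD and 56 to 85 in the double mutants. These counts therefore check the cGAS labels only weakly, and the cGAS genotype is taken from the labels. Xist, which marks female cells, was high in 1 library each of WT and cGAS-KO and in 2 each of HD and the double mutants. Library cGAS-KO replicate 3 stood apart, with 11.5% of its counts from mitochondrially encoded genes against 5.30% to 9.03% elsewhere. Its markers of cortical projection neurons summed to 1018 CPM, against 64.3 to 660 CPM in the other 11.

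The striatal label held for all 12 libraries in that genes shared by both classes of projection neuron, such as Ppp1r1b and Pde10a, summed to 2337 CPM or more in each. Per kilobase of exon, the WT levels of the 5 genes followed the order Penk, Drd2, Adora2a, Gpr6 and Sp9. Mean levels were 361 ± 46.5, 52.0 ± 7.44, 37.3 ± 7.81, 18.0 ± 3.21 and 3.89 ± 0.164 CPM per kilobase (SD, n = 3). The ranges of Drd2 (43.9 to 58.5) and Adora2a (29.2 to 44.8) touched, and the other neighbours in that order were apart. In HD the order was kept in the means, at 124, 20.04, 9.72, 5.96 and 3.12 CPM per kilobase. Gpr6 (3.57 to 7.90) then overlapped Adora2a (7.04 to 12.5) on one side and Sp9 (2.68 to 3.70) on the other.

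The first comparison, HD with WT, measures the knock-in effect in mice that have cGAS. Drd2, Adora2a, Penk and Gpr6 fell to between 26.0% and 38.6% of their WT levels. Sp9, the transcription factor of the set, measured 80.3% of its WT level and did not pass the test. Thus 4 of 5 members were called lower, where 2.67% of all 21309 genes tested were (1.43% were called higher, 4.1% either way). A gene was called when its p from the quasi-likelihood test of edgeR, adjusted over all genes by Benjamini-Hochberg, was under 0.05, which is named the edgeR adjusted p below. The median log2 change of the 5 members was -1.55, and that of all genes 0.013. In bulk tissue, fewer cells of a type and less RNA per cell cannot be told apart.

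Penk encodes proenkephalin, the precursor that convertases cut into enkephalins. In GENCODE M21 (GRCm38) the gene lies on the minus strand of chromosome 4, from 4133531 to 4138819. Its coding sequence of 268 codons holds 6 copies of Met-enkephalin and 1 of Leu-enkephalin, which are shown because 1 Penk transcript stands for 7 opioid peptides. The copies below run 5′ to 3′ along the coding strand, in the order of the precursor. Capitals mark the codons of the peptide, and the 6 bases in lower case on each side hold mostly the pairs of basic codons where the precursor is cut.
Met-enkephalin copy 1: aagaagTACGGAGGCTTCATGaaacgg
Met-enkephalin copy 2: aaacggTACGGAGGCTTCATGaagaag
Met-enkephalin copy 3: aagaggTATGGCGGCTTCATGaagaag
Met-enkephalin copy 4: aagaggTATGGGGGCTTCATGagaagc
Met-enkephalin copy 5: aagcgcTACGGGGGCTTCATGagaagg
Leu-enkephalin copy 6: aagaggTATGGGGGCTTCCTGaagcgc
Met-enkephalin copy 7: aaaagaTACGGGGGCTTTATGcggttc

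Penk measured 516, 589 and 668 CPM in the 3 WT libraries and 279, 195 and 131 CPM in the 3 HD libraries. The lowest WT library was thus above the highest HD library, by 1.85-fold. All 5 members were apart in this way, as were 13.1% of the genes tested. Its log2 change in HD against WT was -1.55 ± 0.23 (SE, edgeR adjusted p = 0.00361), a 2.93-fold fall. In cGAS-KO it was at 716, 588 and 847 CPM, and in the double mutants at 274, 249 and 238 CPM. These groups were also apart (10.7% of the genes tested were), and the log2 change between them was -1.50 ± 0.23 (edgeR adjusted p = 0.00349). Exons of Penk share 233 bases with A830012C17Rik on the opposite strand, and the sources do not say if the counting used strand. That neighbour had 6 to 22 counts in any library, against 9921 or more for Penk.

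Adora2a encodes the A2A receptor, which couples to the stimulatory protein Golf and raises cAMP. It lies on the plus strand of chromosome 10, from 75316877 to 75334784. Adora2a measured 89.5, 116 and 137 CPM in WT and 38.4, 29.4 and 21.5 CPM in HD. It was at 154, 120 and 125 CPM in cGAS-KO and 34.4, 31.9 and 31.1 CPM in the double mutants. Every knock-in library lay below every other library, with a gap of 2.33-fold between the nearest, the widest among the members. The falls were 3.84-fold in HD against WT (log2 change -1.94 ± 0.20, edgeR adjusted p = 0.000442) and 4.10-fold in the double mutants against cGAS-KO (-2.04 ± 0.20, edgeR adjusted p = 0.000266).

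Drd2 encodes the D2 receptor, which couples to inhibitory G proteins and lowers cAMP. It lies on the plus strand of chromosome 9, from 49340627 to 49408177. Drd2 measured 112, 136 and 149 CPM in WT and 71.8, 50.2 and 31.2 CPM in HD. In cGAS-KO it was at 154, 125 and 221 CPM, and in the double mutants at 76.4, 64.8 and 64.9 CPM. Knock-in libraries again lay below the rest, but cGAS-KO replicate 3 stood above its group. The log2 change was -1.37 ± 0.28 in HD against WT (edgeR adjusted p = 0.022). Between the double mutants and cGAS-KO it was -1.28 ± 0.28 (edgeR adjusted p = 0.0293). Neither call held in every fit with 1 library left out. The first was lost without WT replicate 2, WT replicate 3 or HD replicate 2 (edgeR adjusted p = 0.0835, 0.0972 and 0.0835). The second was lost without cGAS-KO replicate 1 or 3 or any of the 3 double mutants (edgeR adjusted p = 0.0777, 0.0968, 0.0915, 0.121 and 0.097), while the log2 change stayed between -1.45 and -1.03 over the 6 libraries left out.

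Gpr6 encodes an orphan receptor that is active without a known ligand and raises cAMP. It lies on the minus strand of chromosome 10, from 41069977 to 41072285. Gpr6 measured 26.7, 31.6 and 38.1 CPM in WT and 14.1, 11.5 and 6.38 CPM in HD. It was at 41.9, 32.3 and 29.4 CPM in cGAS-KO and 10.7, 11.1 and 10.5 CPM in the double mutants. No knock-in library reached the lowest of the others, WT replicate 1. The log2 changes were -1.59 ± 0.24 (edgeR adjusted p = 0.00444) with cGAS and -1.68 ± 0.24 (edgeR adjusted p = 0.00285) without it.

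Sp9 encodes a zinc-finger transcription factor that indirect-pathway neurons need during their development. It lies on the plus strand of chromosome 2, from 73271925 to 73284706, and shares 270 exonic bases with Cir1 on the opposite strand. Sp9 measured 19.3, 19.0 and 20.5 CPM in WT and 18.7, 15.04 and 13.5 CPM in HD. It was at 24.1, 23.2 and 18.4 CPM in cGAS-KO and 17.04, 19.0 and 18.5 CPM in the double mutants. WT and HD did not overlap, but cGAS-KO replicate 3 lay below double-mutant replicates 2 and 3. The log2 changes were -0.32 ± 0.13 (edgeR adjusted p = 0.194) and -0.27 ± 0.13 (edgeR adjusted p = 0.29). Cir1 was measured at 38.7 to 53.4 CPM and did not pass the test for the knock-in allele (averaged log2 change 0.06 ± 0.07, edgeR adjusted p = 0.62).

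**Figure D1:**
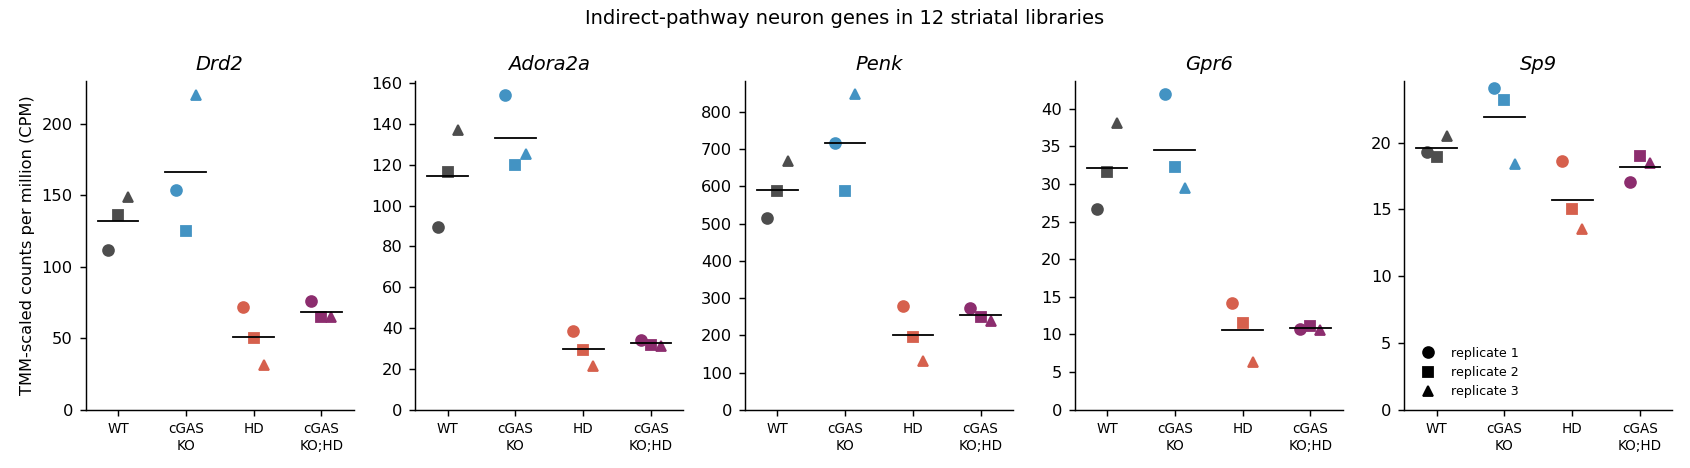
Levels of the 5 genes in each library, in TMM-scaled CPM on a linear axis that starts at 0, by group, with a bar at the mean of 3 libraries and a marker shape for each replicate number. For Drd2, Adora2a, Penk and Gpr6 the 6 knock-in libraries lie below the other 6, and for Sp9 they overlap.

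Without cGAS, the knock-in effect on these genes asks the same question in the double mutants against cGAS-KO. Again 4 of 5 members were called lower and Sp9 was not, beside 2.52% of all genes called lower, 1.44% higher and 3.96% either way. The members' median log2 change was -1.50, against 0.0026 over all genes. Averaged over both cGAS genotypes, with 6 libraries on each side, the changes were -1.99 ± 0.14 for Adora2a, -1.63 ± 0.17 for Gpr6, -1.52 ± 0.16 for Penk and -1.33 ± 0.20 for Drd2 (edgeR adjusted p = 7.61e-06, 0.00012, 0.000118 and 0.00154). Sp9 then passed at -0.29 ± 0.09 (edgeR adjusted p = 0.0468). All 5 members were called lower in this average, where 7.63% of all genes were (5.59% higher, 13.2% either way). For 4 of the 5 genes all 6 knock-in libraries lay below all 6 others, an arrangement found in 4.12% of the genes tested.

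Sp9 sat at the threshold. Its averaged call was lost without WT replicate 1, 2 or 3 (edgeR adjusted p = 0.0515, 0.0843 and 0.115), HD replicate 2 or 3 (0.106 and 0.105), cGAS-KO replicate 1 or 2 (0.107 and 0.0778) or double-mutant replicate 1, 2 or 3 (0.108, 0.0739 and 0.0767). It was also lost with the Xist class of each library as a factor (edgeR adjusted p = 0.0811). Within the 6 Xist-high libraries Sp9 overlapped between knock-in and other mice, with a mean log2 difference of -0.09, and within the 6 Xist-low libraries it did not, at -0.51. The other 4 members were apart in both classes, but the share of all genes apart within each class was not counted. The mean log2 differences of these 4 members were -1.33 and -1.53 for Drd2, -1.70 and -2.27 for Adora2a, -1.47 and -1.75 for Penk, and -1.26 and -2.11 for Gpr6, in Xist-high and Xist-low libraries respectively. Each class held unequal numbers, 4 knock-in against 2 other libraries in the first and 2 against 4 in the second.

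Whether cGAS loss moved these genes was read in the double mutants against HD, and in cGAS-KO against WT. No member was called in either comparison, by edgeR, by DESeq2 or by limma-voom, and none had an unadjusted edgeR p under 0.05. Over all genes 0.00469% and 0% were called. In knock-in mice the log2 differences (double mutants minus HD, with 95% intervals) were 0.43 for Drd2 (-0.18 to 1.03), 0.33 for Penk (-0.15 to 0.81), 0.21 for Sp9 (-0.07 to 0.48), 0.13 for Adora2a (-0.30 to 0.55) and 0.02 for Gpr6 (-0.50 to 0.54). In mice without the knock-in allele (cGAS-KO minus WT) they were 0.33 for Drd2 (-0.27 to 0.93), 0.28 for Penk (-0.20 to 0.76), 0.22 for Adora2a (-0.20 to 0.64), 0.16 for Sp9 (-0.11 to 0.43) and 0.10 for Gpr6 (-0.41 to 0.62). All 10 fitted differences were above 0 and all 10 intervals included 0. The genes share the same libraries, so these are not 10 separate observations. The 10 direct-pathway genes also lay above 0 in the double mutants against HD, from 0.007 to 0.39 with a median of 0.15. In cGAS-KO against WT those genes ran from -0.011 to 0.39 with a median of 0.21. The Drd2 difference without the knock-in allele was -0.035 when WT replicate 1 and cGAS-KO replicate 3 were left out.

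Averaged over both Htt genotypes, the effect of cGAS loss was 0.38 ± 0.19 for Drd2, 0.30 ± 0.16 for Penk, 0.18 ± 0.09 for Sp9, 0.17 ± 0.14 for Adora2a and 0.06 ± 0.17 for Gpr6. All missed the threshold (edgeR adjusted p from 0.564 to 0.888), no gene of the whole table was called (0%), and no member had an unadjusted edgeR p under 0.05 (2 did by DESeq2 and 1 by limma-voom). The double mutants' values stayed below every library without the knock-in allele for Drd2, Adora2a, Penk and Gpr6. The interaction, which tests whether the knock-in effect differed with cGAS loss, lay between -0.09 and 0.10 on the log2 scale for the 5 genes. Its 95% intervals ran from -0.76 to 0.95 for Drd2, -0.69 to 0.51 for Adora2a, -0.63 to 0.73 for Penk, -0.81 to 0.65 for Gpr6 and -0.34 to 0.43 for Sp9. No member was called for it by edgeR, DESeq2 or limma-voom, none had an unadjusted edgeR p under 0.05, and 0.00469% of all genes were called.

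**Figure D2:**
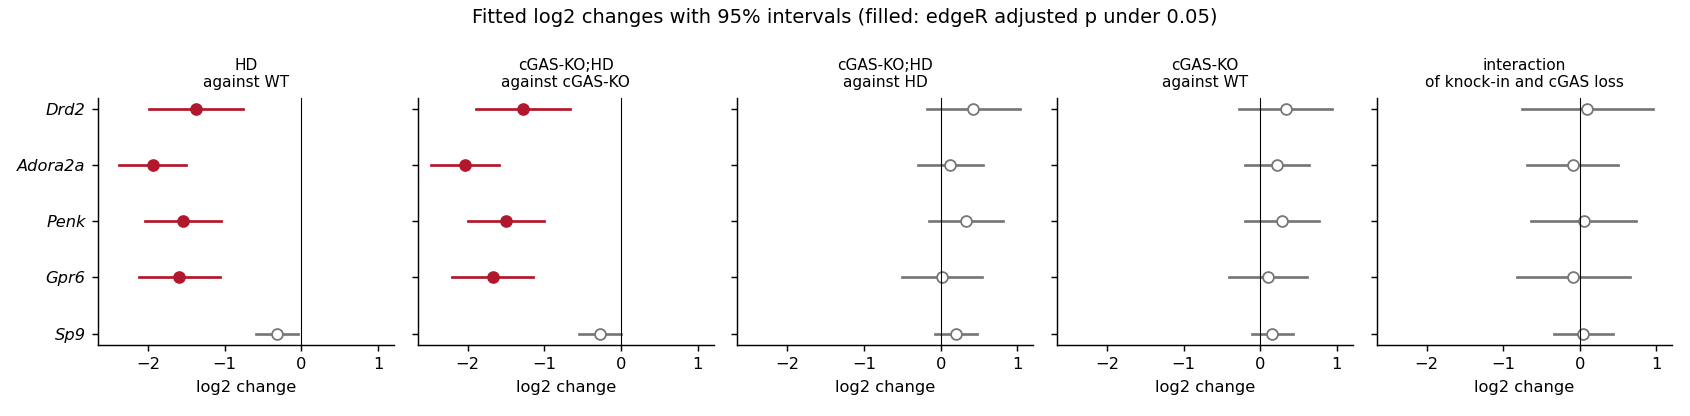
Fitted log2 changes of the 5 genes (points) with unadjusted 95% intervals (lines) in 4 comparisons and the interaction. Filled red points passed an edgeR adjusted p of 0.05. Drd2, Adora2a, Penk and Gpr6 are filled in both knock-in comparisons, and no point is filled for cGAS loss or the interaction.

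Spread differed between the knock-in groups. The coefficient of variation of the 3 HD libraries was 39.8% for Drd2, 28.3% for Adora2a, 36.7% for Penk, 36.9% for Gpr6 and 16.7% for Sp9. In the double mutants it was 9.71%, 5.21%, 7.43%, 2.80% and 5.57%. HD replicate 1 was the highest and HD replicate 3 the lowest HD library for each of the 5 genes. Markers of thalamic and pallidal neurons, the list of 6 genes from Slc17a6 to Gbx2, summed to 411, 597 and 845 CPM in HD replicates 1, 2 and 3. The part of that difference in the members' spread was not tested.

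Markers of neurons from neighbouring tissue varied widely between libraries. The group ranges of their sums overlapped between HD and WT only through WT replicate 1. Between the double mutants and cGAS-KO they overlapped only through cGAS-KO replicate 2. All 8 markers of cortical projection neurons, among them Slc17a7, had detectable counts in every library and summed to 80.3 to 660 CPM in WT, 124 to 1018 in cGAS-KO, 64.3 to 112 in HD and 121 to 260 in the double mutants. The 6 thalamic and pallidal markers, also with none at 0, summed to 175 to 557 CPM in WT and 105 to 554 in cGAS-KO. In HD they summed to 411 to 845 CPM and in the double mutants to 271 to 427. WT replicates 2 and 3 had cortical sums of 555 and 660 CPM, and thalamic and pallidal sums of 286 and 175 CPM, all outside the HD ranges. In cGAS-KO replicates 1 and 3 these sums were 262 and 1018 CPM, and 248 and 105 CPM, all outside the double-mutant ranges. For the averaged knock-in effect edgeR called none of these 14 genes, while 7 cortical and no thalamic or pallidal ones had an unadjusted p under 0.05. DESeq2 called 6 of the cortical genes lower, where it called 3853 of all 21309 genes either way. The smallest p belonged to Slc30a3, a zinc transporter of cortical synapses (log2 change -1.67 ± 0.54, edgeR adjusted p = 0.0739), and Slc17a6, a glutamate transporter of thalamic neurons (0.80 ± 0.43, edgeR adjusted p = 0.271). Without WT replicate 1 and cGAS-KO replicate 3, 6 of the 8 cortical genes were called lower, in a fit that called 4595 of 21724 genes either way. WT replicate 1 and cGAS-KO replicate 2, at 557 and 554 CPM of thalamic and pallidal markers, lay inside the HD range of 411 to 845 CPM. Their Adora2a was 89.5 and 120 CPM, against 38.4 CPM in the highest knock-in library. Their Penk was 516 and 588 CPM, against 279 CPM in the highest knock-in library. Each was also the lowest library of its own group for Drd2, Adora2a and Penk, as HD replicate 3, with the highest marker sum, was in HD. The part of these markers in the members' fall was not tested. Leaving out WT replicate 1 and cGAS-KO replicate 3 left all 5 members called lower for the averaged effect. Without WT replicate 1, the WT and HD ranges of both marker sums no longer overlapped, so that fit could not test the markers' part.

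**Figure D3:**
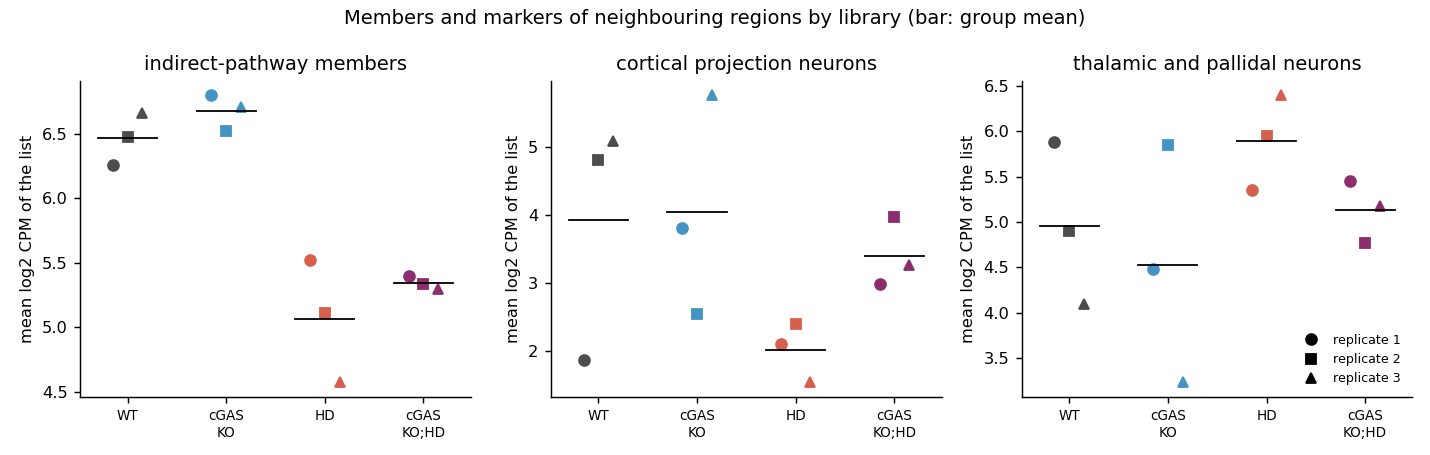
Mean log2 CPM over the 5 indirect-pathway genes, 8 cortical markers and 6 thalamic and pallidal markers in each library, by group, with a bar at the mean of 3 libraries. In the right panel the thalamic and pallidal ranges overlap only through WT replicate 1 (HD with WT) and cGAS-KO replicate 2 (double mutants with cGAS-KO). In the middle panel WT replicates 2 and 3, at 4.81 and 5.09, lie above every HD library, at most 2.405. The left panel shows no overlap of the indirect-pathway genes between knock-in and other libraries. The part of the markers in that separation was not tested.

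Ratios between a pair of genes in the same library ask whether the members fell by the same amount, and need no scaling between libraries. In all, 7 log2 ratios of counts were compared between 6 knock-in and 6 other libraries with a two-sided exact permutation test within cGAS genotype. Its smallest possible p is 0.005, or 0.00875 once adjusted here over the 7 by Benjamini-Hochberg. Adora2a fell more than Drd2, with a mean log2 ratio of -0.26 ± 0.30 without and -0.91 ± 0.23 with the knock-in allele (SD, n = 6 each). That difference was -0.65 with a 95% interval of -0.97 to -0.31 (exact permutation adjusted p = 0.00875). Penk fell slightly more than Drd2, by 0.20 on the log2 scale (interval of the difference -0.31 to -0.08, exact permutation adjusted p = 0.014).

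Sp9 went the other way: its ratio to Drd2 rose by 1.05 (interval 0.59 to 1.54, exact permutation adjusted p = 0.00875), and all 6 knock-in libraries were above all 6 others. Gpr6 to Drd2 did not pass at -0.31 (interval -0.66 to 0.07, exact permutation adjusted p = 0.146). Without cGAS-KO replicate 3, whose Gpr6 to Drd2 ratio was -2.91 against -2.11 to -1.88 in the other 5 libraries lacking the knock-in allele, it passed at -0.48 (exact permutation adjusted p = 0.007). That library also had the lowest Sp9 to Drd2 ratio of the 12, at -3.58, and the highest Drd2 to Drd1 ratio, at 0.59.

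Against the direct pathway, the receptor ratio missed the threshold and both peptide ratios passed it. For Drd2 and Drd1, the D1 dopamine receptor, the mean log2 ratio was 0.04 ± 0.30 without and 0.11 ± 0.18 with the knock-in allele (SD, n = 6 each). That difference of 0.06 did not pass, with an interval of -0.26 to 0.35 (exact permutation adjusted p = 0.645). Penk fell more than Tac1, the substance P precursor: their log2 ratio was 2.26 ± 0.11 without and 1.35 ± 0.08 with the knock-in allele. This difference of -0.91 (interval -1.03 to -0.79, exact permutation adjusted p = 0.00875) separated all 6 knock-in libraries from all 6 others, and was -0.96 with cGAS and -0.87 without it. Penk also fell more than Pdyn, the dynorphin precursor, by 0.57 on the log2 scale (interval of the difference -0.91 to -0.26, exact permutation adjusted p = 0.00875), again without overlap.

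**Figure D4:**
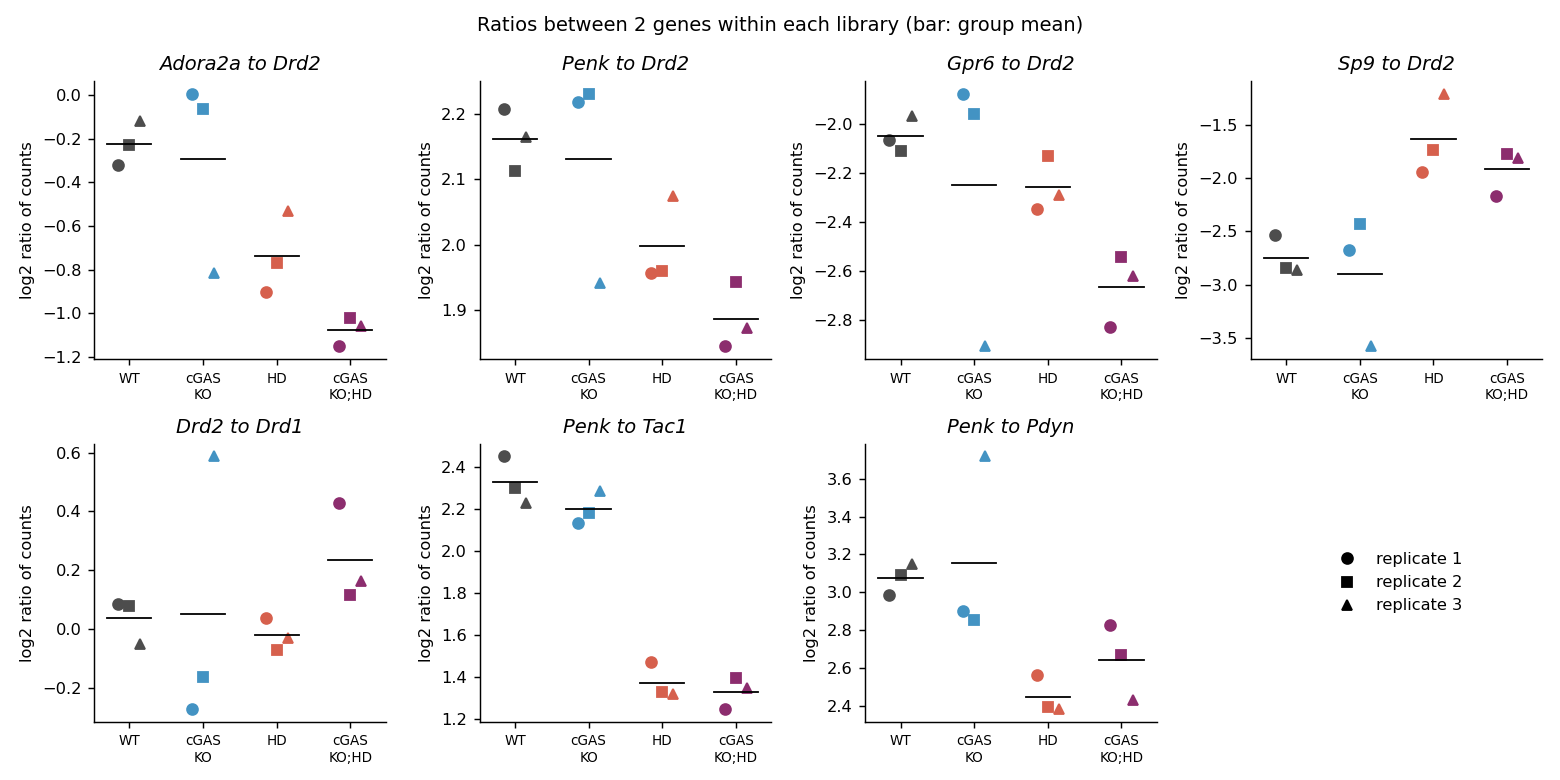
Log2 ratios of the counts of a pair of genes within each library, by group, with a bar at the mean of 3 libraries and a marker shape for each replicate number (the axes do not start at 0). Penk to Tac1 separates knock-in from other libraries with no overlap, Sp9 to Drd2 rises in knock-in libraries, and Drd2 to Drd1 overlaps.

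Of 9 other genes enriched in indirect-pathway neurons, 4 were called lower and none higher for the averaged knock-in effect, with a median log2 change of -0.25. Over all genes 7.63% were called lower and 5.59% higher. Upb1, an enzyme of pyrimidine breakdown, fell by 1.51 ± 0.20 on the log2 scale, beside 1.52 for Penk. Grik3, a kainate receptor subunit, fell by 0.55 ± 0.11, Plxdc1, a membrane protein, by 0.38 ± 0.09, and Fig4, a lipid phosphatase, by 0.21 ± 0.05 (edgeR adjusted p for the 4 genes = 0.000398, 0.00555, 0.0165 and 0.0217). The developmental transcription factors Six3 and Sp8 were measured at -0.25 ± 0.09 and -0.12 ± 0.13 (edgeR adjusted p = 0.0853 and 0.619), near the value of Sp9. Ptprm, a receptor phosphatase, was at 0.00 ± 0.07. Bcl11b and Foxp1, transcription factors that both classes express, showed larger falls than Six3 and Sp8. Mean Bcl11b was 191.5 CPM for WT mice against 96.5 for HD mice, and 222.9 for cGAS-KO mice against 127.4 for double mutants. The same pairs of means for Foxp1 were 192.8 against 115.9 CPM, and 219.5 against 144 CPM. Whether transcription factors as a class fell less than other genes was not tested.

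Of 10 direct-pathway genes, 5 fell and none rose, with a median of -0.30, where 7.63% of all genes were called lower. Drd1 fell by 1.38 ± 0.17 and Chrm4, the M4 muscarinic receptor, by 1.35 ± 0.17, followed by Pdyn (0.96 ± 0.14), Tac1 (0.62 ± 0.15) and Slc35d3, a membrane transporter (0.54 ± 0.14). The edgeR adjusted p of these 5 genes ran from 0.000412 to 0.0222. Genes that both classes express fell in 10 of 12 cases, with a median of -1.18, led by Scn4b, a sodium channel subunit (-2.42 ± 0.14), and Pde10a, a cyclic nucleotide phosphodiesterase (-1.59 ± 0.13). Rasd2, a small G protein of the striatum, changed by -1.25 ± 0.11. Gad1 and Gad2, which make GABA in both classes and in interneurons, were at -0.07 ± 0.08 and -0.02 ± 0.09 (edgeR adjusted p = 0.6 and 0.907).

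**Figure D5:**
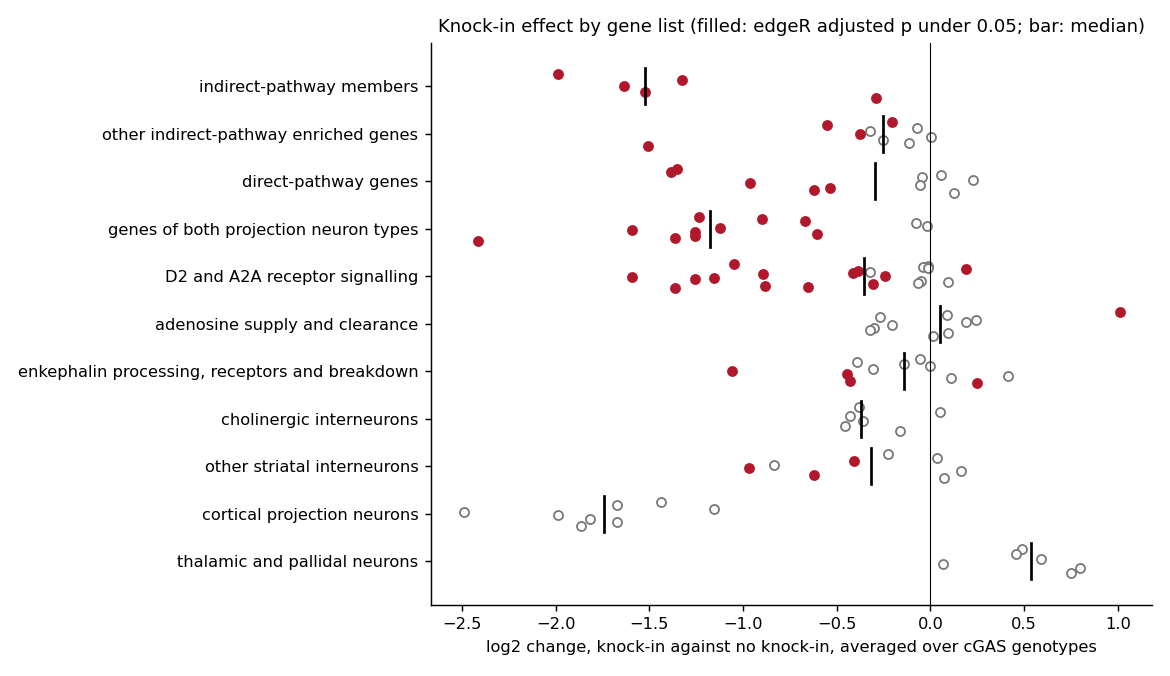
Log2 change of each gene, knock-in against no knock-in averaged over cGAS genotypes, by gene list, with filled red points for an edgeR adjusted p under 0.05 and a black bar at the list's median. The indirect-pathway members except Sp9 lie between -1.99 and -1.33. The 9 other indirect-pathway enriched genes run from -1.51 to 0.0018 with a median of -0.25. Cortical and thalamic markers scatter widely with no filled point.

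The signalling chain behind the D2 and A2A receptors fell in part. Of 20 genes, 12 were called lower, 1 higher and 7 were not called, with a median of -0.36. Over all genes 7.63% were called lower and 5.59% higher. The 4 with the smallest p act on cAMP or its receptors: Pde10a, Rgs9, the regulator that ends D2 signalling (-1.36 ± 0.13), Pde1b, a calcium-activated phosphodiesterase (-1.15 ± 0.11), and Adcy5, the main striatal adenylyl cyclase (-1.05 ± 0.10, edgeR adjusted p from 1.82e-05 to 4.27e-05 for the 4 genes). Gnai2, an inhibitory G protein subunit, was the gene that rose, by 0.19 ± 0.05 (edgeR adjusted p = 0.0342).

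Genes that supply and clear adenosine, the ligand of Adora2a, held 1 called member of 10. That is near the 13.2% of all genes called either way for the averaged effect. Ada, which breaks adenosine down, rose by 1.01 ± 0.25 (edgeR adjusted p = 0.0171). That rise was 1.57 ± 0.36 without cGAS (edgeR adjusted p = 0.0293) and 0.45 ± 0.34 with it, which was not called (edgeR adjusted p = 0.529), and the interaction did not pass (edgeR adjusted p = 1). Ada was low throughout, with a mean of 0.413 CPM in cGAS-KO, 0.975 in WT, 1.23 in double mutants and 1.33 in HD. The median of the 10 genes was 0.05. Without WT replicate 1 and cGAS-KO replicate 3, 3 of the 10 were called lower as well, in the fit that called 4595 of 21724 genes. On the enkephalin side, 3 of 11 genes fell, 1 rose and 7 were not called, with a median of -0.14. Over all genes 7.63% were called lower and 5.59% higher. Oprd1, the delta receptor for enkephalin, fell by 1.06 ± 0.16, Oprk1, the kappa receptor, by 0.44 ± 0.11 and Pcsk2, a convertase that cuts proenkephalin, by 0.43 ± 0.09. Scg5, the chaperone of that convertase, rose by 0.25 ± 0.05 (edgeR adjusted p for the 4 genes = 0.00119, 0.0149, 0.00866 and 0.00769).

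Drd2 is also expressed by cholinergic interneurons. Their 6 markers had counts in every library and summed to 84.2 to 101 CPM in WT, 76.4 to 113 in cGAS-KO, 63.5 to 93.9 in HD and 80.4 to 87.8 in the double mutants. None was called by edgeR or limma-voom for the averaged knock-in effect (3 had an unadjusted edgeR p under 0.05), and their median was -0.37. DESeq2 called 3 of them lower, where it called 3853 of all 21309 genes either way. Chat, which makes acetylcholine, came closest at -0.38 ± 0.13 (edgeR adjusted p = 0.0646). Of 8 markers of other interneurons, 3 fell, where 7.63% of all genes were called lower. These were Nos1, Pthlh and Sst, at -0.41 ± 0.06, -0.97 ± 0.17 and -0.62 ± 0.17 (edgeR adjusted p = 0.00134, 0.00302 and 0.0343). The part of interneurons in the members' levels was not tested.

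Markers of other cells were measured for the same averaged effect, for which 13.2% of all genes were called either way. The single calls among 6 microglial and 8 neuronal markers below are near that share. Among 6 astrocyte markers Slc1a2, the main glutamate transporter, fell by 0.61 ± 0.08 and Aqp4, a water channel, rose by 0.36 ± 0.09. Tmem119 was the 1 of 6 microglial markers that rose, by 0.27 ± 0.08, and Rbfox3 the 1 of 8 markers of all neurons that fell, by 0.64 ± 0.12. None of 6 choroid plexus markers was called by edgeR, DESeq2 or limma-voom or had an unadjusted edgeR p under 0.05, and Ttr had the smallest p (0.48 ± 1.05, edgeR adjusted p = 0.825).

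Among 15257 genes with a mean of at least 1 CPM, some followed a member closely in log2 CPM over the 12 libraries. Pearson's r was highest with Arpp21, Wipf3 and Gcnt2 for Drd2 (0.993, 0.991 and 0.990), and with Pde10a, Syndig1l and Rgs9 for Adora2a (0.996, 0.995 and 0.993). For Penk the 3 closest were Clspn, Actn2 and Cd4 (0.994, 0.993 and 0.992), and for Gpr6 they were Rgs9, Ppp1r1b and Syndig1l (0.994, 0.993 and 0.993). Sp9 had looser company, with Doc2b, Spg21 and Stk32a at 0.949, 0.943 and 0.942. These values describe 12 libraries that share the knock-in split and their dissections, and carry no test.

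Among the members, Drd2 and Penk were closest (r = 0.989), then Adora2a and Gpr6 (also 0.989), while Sp9 reached 0.752 to 0.810 with the other 4. With group means removed, the 12 libraries kept the same closest pairs, at r = 0.981 for Drd2 with Penk and 0.937 for Adora2a with Gpr6. Other pairs graded down from there. Adora2a with Penk was at 0.842, Gpr6 with Sp9 at 0.785, Penk with Gpr6 at 0.774 and Drd2 with Adora2a at 0.755. Drd2 with Gpr6 was at 0.664, and Sp9 was at 0.654 with Adora2a, 0.392 with Penk and 0.222 with Drd2.

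Promoters are shown for the members that RefSeq's table (GRCm38.p6) holds: Drd2, Gpr6 and Sp9 of the 6 genes. Penk and Adora2a, the closest partners of Drd2 and Gpr6 among the members, had no window, so neither pair can be compared. Each window runs 5′ to 3′ on the gene's strand, from 250 bases before to 50 after RefSeq's start. For Drd2 that start lies upstream of the GENCODE start given above and the window ends before the latter, so its distances refer to RefSeq's start. Capitals mark matches, on either strand, to the short core of the cAMP response element (CGTCA or TGACG), the GC box that Sp factors bind (GGGCGG or CCGCCC) and the TATA box (TATAAA or TTTATA).
Drd2, chr9:49340153-49340452, plus strand: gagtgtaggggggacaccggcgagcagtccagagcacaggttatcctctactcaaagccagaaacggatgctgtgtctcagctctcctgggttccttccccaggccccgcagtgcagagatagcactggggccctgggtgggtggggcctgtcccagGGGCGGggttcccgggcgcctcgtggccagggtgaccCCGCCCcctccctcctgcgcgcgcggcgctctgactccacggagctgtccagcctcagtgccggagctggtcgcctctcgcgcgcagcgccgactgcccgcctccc
Gpr6, chr10:41072241-41072540, minus strand: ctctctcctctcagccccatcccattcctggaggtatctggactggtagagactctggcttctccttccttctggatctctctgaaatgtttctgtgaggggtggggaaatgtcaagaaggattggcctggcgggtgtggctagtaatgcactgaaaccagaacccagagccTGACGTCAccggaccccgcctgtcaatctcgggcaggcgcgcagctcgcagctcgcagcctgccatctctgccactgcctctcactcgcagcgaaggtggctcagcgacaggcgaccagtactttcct
Sp9, chr2:73271676-73271975, plus strand: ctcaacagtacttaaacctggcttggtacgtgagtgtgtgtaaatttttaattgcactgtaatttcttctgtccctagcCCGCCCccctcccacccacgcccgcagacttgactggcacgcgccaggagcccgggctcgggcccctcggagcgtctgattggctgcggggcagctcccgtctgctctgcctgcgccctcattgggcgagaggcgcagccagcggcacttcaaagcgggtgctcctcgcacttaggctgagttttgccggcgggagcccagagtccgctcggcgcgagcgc

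Gpr6 had 2 such cores that overlap to form a complete palindromic element, whose first base lies 78 bases before the start. No GC box was found in its window. Drd2 held 2 GC boxes, 93 and 56 bases before the start, and Sp9 held 1, 171 bases before it, and neither held a core of the cAMP element. No window of the 3 held a TATA box. Of all 32851 windows of that length in the table, 20.8% held at least 1 such core, 35.7% a GC box and 13.6% a TATA box. GC content was 70.3% for Drd2, 58.7% for Gpr6 and 63.7% for Sp9, against a median of 52.7% over all windows.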

How the data were processed

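Per the labels, striatal RNA of 12 mice was selected for poly(A) and its libraries kept strand. Each deposited file gives the authors' raw counts by Ensembl gene ID. For the aligner, annotation, build, counting rule and strand setting, nothing is recorded in the labels or headers used here. Sample titles supplied the group and replicate number. Of 55487 genes, 55141 took a symbol from GENCODE M21 (GRCm38), which also gave coordinates and exon lengths.

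From these counts, genes were kept by filterByExpr (minimum count 10, minimum total 15, leaving 21309) and scaled by TMM. A model with 4 group means was fitted to the 12 libraries together in edgeR (quasi-likelihood, robust, common dispersion 0.0326, 8 residual df), and 7 comparisons were tested with Benjamini-Hochberg adjustment over all genes. Standard errors and 95% intervals of log2 changes come from that fit and are not adjusted for the number of genes. Log2 CPM used an offset of 0.5 counts. Ratios used counts plus 0.5, and their intervals invert the exact permutation test. Of 8 planned ratios, 7 were run, since Gpr52 had no identifier. Fits and ratio tests were first checked on simulated data.

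The members, gene lists and tests were chosen with earlier results of these data known. Named genes were the members, the targeted genes, Drd1, Tac1 and Pdyn, up to 4 called genes of each list by p (or the one with the smallest p), and the 3 genes closest to each member by Pearson's r. Others (Six3, Sp8, Bcl11b, Foxp1, Ptprm, Slc35d3, Gad1, Gad2, Gnai2, Cir1, A830012C17Rik) were named once their values had been seen. Oligodendrocyte markers are not reported here. Alternatives were other size factors, filters, tools, a replicate block, the Xist class as a factor, the compared groups alone, and libraries left out. The tools were DESeq2 1.42.0, limma 3.58.1 and edgeR 4.0.16, run in R 4.3.3.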

Additional observations from a re-analysis of the deposited data

How the results depend on the processing

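Over 120 recounts of the members called, the number was within 1.5 times its value in 119. That band takes 3 for 4, or 4 for 5, as unchanged. For the effects of cGAS loss and the interaction the number was 0 in every recount, so much of that total could hardly move. In HD against WT the number was 2 with the compared groups alone, where Drd2 and Gpr6 missed (edgeR adjusted p = 0.0867 and 0.0531). That fit called 935 of 20383 genes either way. Leaving out single libraries gave 3 to 4 members called in HD against WT and in the double mutants against cGAS-KO, and 4 to 5 for the averaged knock-in effect. Of 21822 to 21924 genes tested, those fits called 247 to 1532, 321 to 1089 and 1784 to 3596 either way, in the same order. The Drd2 calls of the separate comparisons were also lost without a low-count filter (edgeR adjusted p = 0.0754 with and 0.0996 without cGAS), and in the double mutants when WT replicate 1 and cGAS-KO replicate 3 were both dropped (0.105). No called member changed sign. Same-numbered libraries correlated at -0.108 to 0.177 after removing group means, against -0.244 to 0.266 for other numbers, and not every library correlated best with its own number, so the numbers were not taken to pair mice. With the replicate block, 4, 3 and 4 members were called for HD against WT, the double mutants against cGAS-KO and the averaged effect, Drd2 missing in the second (0.0516) and Sp9 in the third (0.0632). Of all 21309 genes, 507, 596 and 2313 were called either way with that block.

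Uncalled changes near 0 did change sign. With 1 library left out, cGAS loss in knock-in mice ranged from -0.058 to 0.35 for Adora2a and -0.24 to 0.28 for Gpr6, the lowest without HD replicate 3. In mice without the knock-in allele Gpr6 ranged from -0.058 to 0.25. Drd2 there ranged from 0.08 to 0.50, and was -0.035 when both WT replicate 1 and cGAS-KO replicate 3 were left out. The averaged cGAS effect on Gpr6 ranged from -0.069 to 0.19. The interaction ranged from -0.15 to 0.43 for Drd2, -0.27 to 0.14 for Adora2a, -0.17 to 0.36 for Penk, -0.34 to 0.18 for Gpr6 and -0.074 to 0.19 for Sp9. With both of those libraries left out it was 0.46 for Drd2, 0.017 for Adora2a and -0.050 for Sp9, and with limma-voom 0.0051 for Gpr6. The cause was not tested.

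Leaving out 1 library gave ratio differences of -0.78 to -0.58 for Adora2a to Drd2, -0.25 to -0.18 for Penk to Drd2, 0.88 to 1.17 for Sp9 to Drd2, -0.94 to -0.88 for Penk to Tac1 and -0.65 to -0.43 for Penk to Pdyn, each still past the threshold. Gpr6 to Drd2 ranged from -0.48 to -0.22 and passed without cGAS-KO replicate 3, and at -0.48 without that library and WT replicate 1 (a setting added after the data were seen). Drd2 to Drd1 ranged from -0.018 to 0.20, the lowest without cGAS-KO replicate 1, and was 0.21 with both of those libraries left out. With the replicate block the 7 ratios kept their sides of the threshold.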
